A study of Mus musculus with 7 samples.

Results

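Ribosome-bound RNA of the medial prefrontal cortex was examined for 10 genes of the glucocorticoid system. They comprise the receptor genes Nr3c1 and Nr3c2 and 8 genes known to be induced by these receptors: Fkbp5, Sgk1, Tsc22d3, Zbtb16, Klf9, Pdk4, Errfi1 and Ddit4. The members were matched by exact gene symbol to probe sets that carry 1 symbol, and where a gene had several, the brightest over the 7 arrays was kept. All 10 were measured, out of 22180 genes in all.

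Glucocorticoids are steroid hormones that the adrenal cortex releases during stress and in a daily rhythm. In the cell they bind the glucocorticoid receptor (Nr3c1) and the mineralocorticoid receptor (Nr3c2), which then enter the nucleus and bind DNA elements near target genes. In prefrontal cortex the mineralocorticoid receptor is the one of higher affinity, and the glucocorticoid receptor is engaged when hormone levels are high.

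The study compared mPFC cells that had been active under cocaine with mPFC cells that had been active under electric shock. Mice with a taggable ribosome (ribosome TRAP) were crossed to an ArcCre transgenic line, so that Cre depended on Arc, an activity-regulated neuronal gene. Tamoxifen was present during the exposure, activated cells received GFP-tagged ribosomes, and these were precipitated with an anti-GFP antibody. The cocaine-activated group received 15 mg/kg cocaine on 2 days and has 4 arrays, numbered 4, 5, 6 and 7 in their titles. The shock-activated group received 20 shocks of 2 s at 0.5 mA on 2 days and has 3 arrays, numbered 4, 5 and 6. The sources used here do not give age, sex, strain, the number of mice behind an array, the time from exposure to collection or the meaning of the title numbers. Both groups received a treatment, and unstressed mice were not analysed here, so the values place one treatment against the other and not against rest. The labels do not say whether each array stands for separate animals, so the p-values cover array-to-array spread, which may be technical.

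The values are deposited log2 expression values, and differences are the cocaine mean minus the shock mean. A level of 5.46, the 95th percentile of the means of olfactory and vomeronasal receptor genes, served as a stand-in for background, and all 10 members lay above it. Cocaine array 6 stood apart, with a mean distance of 37.2 to the other arrays over all genes, against 27.5 to 29.6 for the other 6. The neuronal markers Slc17a7 and Camk2a lay above the background level, as did every measured vascular (12 of 12), astrocyte (9 of 9), oligodendrocyte (8 of 8) and microglial (7 of 7) marker. Inhibitory neuron markers did so in 5 of 6 cases, and 61.9% of all genes did. Marker RNA of several cell types was thus present above that level, and fewer cells of a type cannot be told apart from less RNA per cell.

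None of the 10 members differed between cocaine and shock after correction over all genes. The adjusted p-values by limma were 0.938 or higher, and 0 of 22180 genes passed (0% called). At an unadjusted p under 0.05 there was 1 member, Pdk4, beside 688 genes in all (3.1%). In 0 of the 10 members were the groups free of overlap, beside 2.37% of all genes. The cocaine mean was higher in 7 members and lower in 3, with a median difference of 0.050, where 50.9% of all genes were higher and their median was 0.0016. Sgk1, Tsc22d3, Errfi1 and Ddit4 spread more widely within the groups than between them, and for Sgk1, Tsc22d3 and Errfi1 the array of the same number stood out in both groups.

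**Figure D1:**
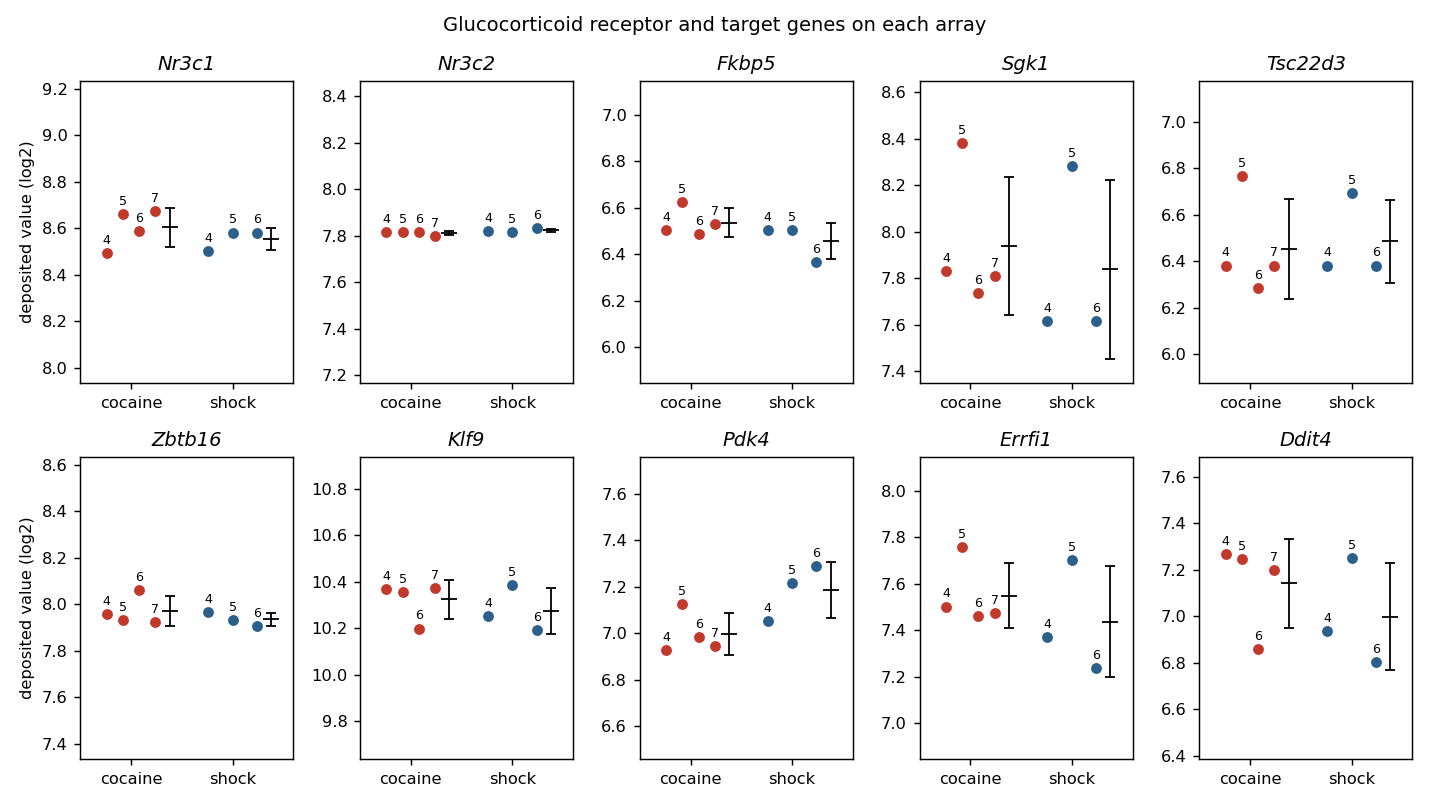
Deposited log2 values of the 10 genes on each array (points, labelled with the title number), with cocaine arrays in red on the left and shock arrays in blue on the right, and bars for the mean ± SD (n = 4 and n = 3). Each panel spans the same log2 range. Sgk1, Tsc22d3 and Errfi1 were highest on the array numbered 5 in both groups, while Nr3c2 hardly varied.

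The receptor genes were nearly level. Nr3c1, which encodes the glucocorticoid receptor (probe set 17353985), had 8.49, 8.66, 8.59 and 8.67 on cocaine arrays 4, 5, 6 and 7, against 8.50, 8.58 and 8.58 on shock arrays 4, 5 and 6. The shock values lay inside the cocaine range. Cocaine arrays averaged 8.60 ± 0.083 and shock arrays 8.56 ± 0.047 (SD, n = 4 and n = 3), a 1.03-fold ratio with a 95% interval of 0.947 to 1.13 (limma, adjusted p = 0.938). The interval bounds any difference in ribosome-bound Nr3c1 on this scale, but does not show the groups to be equal.

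Nr3c2, which encodes the mineralocorticoid receptor (probe set 17502626), had 7.82, 7.82, 7.82 and 7.80 on cocaine arrays 4 to 7, against 7.82, 7.82 and 7.83 on shock arrays 4 to 6. Its range over the 7 arrays was 0.031, and only 0.821% of all genes had a smaller SD within groups. The value was identical on 4 of the arrays, as happened on at least 2 arrays for 55.9% of all probe sets; the cause was not tested, and such ties narrow the apparent spread. The difference was -0.010 (95% interval -0.077 to 0.056; limma, adjusted p = 0.968). No cocaine array exceeded a shock array, but 3 cocaine arrays and shock array 5 were tied. A second probe set of Nr3c2 lay near the background level, with 5.41, 5.41, 5.27 and 5.46 on the cocaine arrays and 5.41, 5.53 and 5.36 on the shock arrays, and its groups overlapped too.

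Fkbp5 encodes a co-chaperone that lowers the hormone affinity of the glucocorticoid receptor and is itself induced by it, which closes a feedback loop. It had 6.50, 6.62, 6.49 and 6.53 on cocaine arrays 4 to 7, against 6.50, 6.50 and 6.37 on shock arrays 4 to 6. The highest value was on cocaine array 5 and the lowest on shock array 6, and 3 arrays shared the value 6.50. The difference was 0.079 (SE 0.053; limma, adjusted p = 0.938) and was 0.034 without shock array 6.

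Sgk1 varied most. It encodes a kinase that is induced by both receptors and acts on ion transport and neuronal excitability. The groups shared one feature: the array numbered 5 was far above the rest. Sgk1 had 7.83, 8.38, 7.74 and 7.81 on cocaine arrays 4 to 7, against 7.61, 8.28 and 7.62 on shock arrays 4 to 6. Its SD within groups, 0.33, exceeded that of 97.6% of all genes. Cocaine arrays averaged 7.94 ± 0.30 and shock arrays 7.84 ± 0.38 (SD, n = 4 and n = 3). The difference of 0.10 had a 95% interval of -0.43 to 0.63 (limma, adjusted p = 0.960), which reaches 1.55-fold in favour of cocaine. Without regard to the title numbers, its sign depended on single arrays. Leaving out cocaine array 5 gave -0.045, shock array 4 -0.0089, shock array 6 -0.0084 and shock array 5 0.32. Within each of the numbers 4, 5 and 6, however, the cocaine array lay above the shock array. With the number as a replicate block the difference was 0.15 (limma, unadjusted p = 0.0348, adjusted p = 0.871).

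Tsc22d3 encodes GILZ, a leucine zipper protein that carries part of the anti-inflammatory action of glucocorticoids. It had 6.38, 6.77, 6.28 and 6.38 on cocaine arrays 4 to 7, against 6.38, 6.69 and 6.38 on shock arrays 4 to 6. Again the arrays numbered 5 were highest, and 4 of the remaining 5 arrays had an identical value. The difference was -0.032 (SE 0.13; limma, adjusted p = 0.980), and leaving out cocaine array 5 gave -0.14, leaving out shock array 5 gave 0.072.

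Errfi1 encodes MIG6, an inhibitor of the EGF receptor family. It had 7.50, 7.76, 7.46 and 7.48 on cocaine arrays 4 to 7, against 7.37, 7.70 and 7.24 on shock arrays 4 to 6. Here too the arrays numbered 5 were highest in their groups, and shock array 6 was lowest. The difference was 0.11 (SE 0.13, limma, adjusted p = 0.938), and leaving out shock array 6 gave 0.012, leaving out shock array 5 gave 0.25. As for Sgk1, the cocaine array lay above the shock array within each of the numbers 4, 5 and 6. With the number as a replicate block the difference was 0.14 (limma, unadjusted p = 0.0604, adjusted p = 0.871).

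Sgk1, Tsc22d3 and Errfi1 were highest on both arrays numbered 5, so 1 promoter window of each is shown, as held in RefSeq for GRCm38.p6. Each window covers the 250 bases before an annotated start. Capitals mark matches, on either strand, to 4 sets of letters: the palindromic glucocorticoid response element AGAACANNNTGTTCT, its single hexamer AGAACA, the cAMP response element TGACGTCA and the E-box CACGTG.
Sgk1, chr10:21993640-21993889, plus strand: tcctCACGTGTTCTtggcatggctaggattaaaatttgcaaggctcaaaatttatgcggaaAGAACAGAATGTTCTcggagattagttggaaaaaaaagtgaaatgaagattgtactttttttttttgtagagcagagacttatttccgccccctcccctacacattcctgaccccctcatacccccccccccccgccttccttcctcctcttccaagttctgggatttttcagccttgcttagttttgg
Tsc22d3, chrX:140600523-140600772, minus strand: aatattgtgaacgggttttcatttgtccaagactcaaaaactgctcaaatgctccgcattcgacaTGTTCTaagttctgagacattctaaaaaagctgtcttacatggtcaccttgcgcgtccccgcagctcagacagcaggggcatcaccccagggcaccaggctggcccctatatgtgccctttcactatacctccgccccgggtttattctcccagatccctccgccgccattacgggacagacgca
Errfi1, chr4:150854820-150855069, plus strand: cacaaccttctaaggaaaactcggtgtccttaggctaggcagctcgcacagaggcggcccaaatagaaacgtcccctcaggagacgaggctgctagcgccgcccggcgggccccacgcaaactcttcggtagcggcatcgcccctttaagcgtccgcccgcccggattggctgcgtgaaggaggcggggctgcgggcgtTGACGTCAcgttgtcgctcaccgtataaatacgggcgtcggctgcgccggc
The Sgk1 window holds the full palindrome, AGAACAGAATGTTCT, which begins 189 bases before the start. Near its upstream end an E-box overlaps another hexamer. Sgk1 has 6 annotated windows and the palindrome is in this one. Of its windows not shown, chr10:21881934-21882183 and chr10:21991973-21992222 hold 1 hexamer each and the rest no match. The Tsc22d3 window, 1 of 3, holds a single hexamer and the Errfi1 window shown a cAMP response element. For each gene the window shown is the one with the most matches. The Tsc22d3 windows not shown hold no match. The other annotated Errfi1 window, chr4:150853546-150853795, holds no match.

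In all, 8 of the 10 members matched the promoter table, with 16 windows. The palindrome occurred in 3 of 32851 windows of the same length (0.00913%), and Sgk1 was the only member with it. The hexamer occurred in 16.1% of all windows (4912 of 27025 genes) and in windows of 2 members, Sgk1 and Tsc22d3. The cAMP response element occurred in 1.55% of windows (478 of 27025 genes) and, among members, in Errfi1. The E-box occurred in 6.02% of windows (1854 of 27025 genes) and, among members, in Sgk1 and Fkbp5. Members with several windows have more places for a match. A match describes the letters of the window and does not show that a receptor bound there.

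The shared pattern was counted after it had been seen in the values, and is a description. Both arrays numbered 5 lay above each of the other 5 arrays in 3 of the 10 members (Sgk1, Tsc22d3 and Errfi1), where 4.39% of all genes did so. Both arrays numbered 4 did so in 0 members (5.08% of all genes) and both arrays numbered 6 in 0 members (6.58%). In a list of other genes known to be induced by glucocorticoids, 28 of 29 were measured and 8 had both arrays numbered 5 on top: Per1, Nfkbia, Cdkn1a, Bcl6, Rasd1, Arrdc2, Cables1 and Mertk. Per1, a clock gene with a known glucocorticoid response element, had 9.22, 9.83, 9.08 and 9.17 on cocaine arrays 4 to 7, against 9.06, 9.83 and 9.05 on shock arrays 4 to 6. Its group means were nearly equal, with a difference of 0.013 (limma, adjusted p = 0.995). Cdkn1a, a cell cycle inhibitor gene, had 8.35, 8.77, 8.37 and 8.37 on the cocaine arrays, against 8.19, 8.83 and 8.12 on the shock arrays. Nfkbia, which encodes an inhibitor of NF-kappaB, had 7.41, 7.79, 7.44 and 7.44 on the cocaine arrays, against 7.52, 7.83 and 7.56 on the shock arrays. Per1, Cdkn1a and Nfkbia were named after their values were seen.

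**Figure D2:**
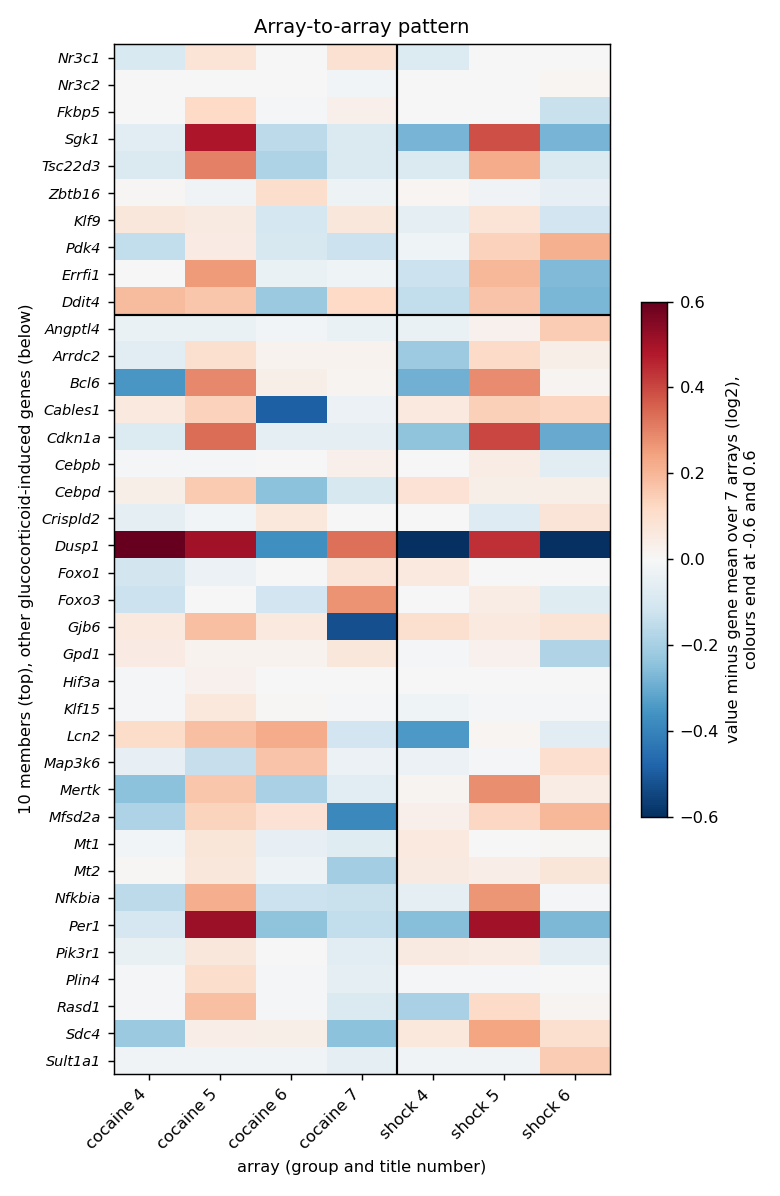
Heat map of log2 values minus each gene's mean over the 7 arrays, for the 10 members (top) and 28 other glucocorticoid-induced genes (below), with cocaine arrays left of the line and shock arrays right of it. Sgk1, Tsc22d3, Errfi1, Per1, Cdkn1a, Bcl6 and Nfkbia were high on cocaine array 5 and shock array 5, whereas Ddit4, Klf9 and Dusp1 were also high on cocaine arrays 4 and 7.

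Other genes moved with the arrays numbered 5. Immediate early genes, the fast transcriptional response to neuronal activity, had both of these arrays on top in 6 of 10 cases (Fosb, Junb, Arc, Egr1, Egr2 and Nr4a1). The cocaine mean was higher in 10 of 10 (median 0.50), against 50.9% of all genes, and 0 passed the adjustment over all genes. Those of lowest p were Npas4 (1.49) and Btg2 (1.01). The list score of the immediate early genes, the mean over genes of the value minus the gene's mean over arrays, was 0.49, 0.63, -0.29 and 0.33 on cocaine arrays 4 to 7, against -0.78, 0.53 and -0.91 on shock arrays 4 to 6. Cocaine arrays 4 and 7 were thus high for immediate early genes as well. Sgk1 on these arrays (7.83 and 7.81) was within 0.1 of its value on cocaine array 6 (7.74), though above it. Sgk1 ordered the arrays as this score did, except for shock arrays 4 and 6, which were nearly tied for Sgk1. Among astrocyte markers 2 of 9 had both arrays numbered 5 on top, with scores of -0.18, 0.093, -0.0080 and -0.15 on the cocaine arrays against -0.022, 0.14 and 0.13 on the shock arrays. Vascular markers had 0 of 12 and oligodendrocyte markers 0 of 8. The part of these in the pattern was not tested.

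The genes most like a member were ranked by Pearson's r over the 7 arrays among 13732 genes above the background level. The best of so many genes reaches a high r on 7 arrays in any case, so the ranks are descriptive. For Sgk1 the nearest gene was Per1 (r = 0.987, Spearman's rho = 0.964, and r = 0.918 without both arrays numbered 5), followed by Ccnd2 and Tet3. Errfi1 was 18th for Sgk1 (r = 0.955, rho = 0.964, and r = 0.875 without both arrays numbered 5). Tsc22d3 was 35th (r = 0.939, rho = 0.709), and its r was -0.085 without both arrays numbered 5, so that likeness rests on those 2 arrays. Between Tsc22d3 and Errfi1, r was 0.828, and -0.27 without both arrays numbered 5. For Tsc22d3 the nearest genes were Dio2, Rbm12b2 and Midn, and for Errfi1 they were Fbxo33, Cx3cl1 and Def8.

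Klf9 and Ddit4 formed a second pattern. Klf9 encodes a Krüppel-like transcription factor induced by glucocorticoids and thyroid hormone. It had 10.37, 10.36, 10.20 and 10.37 on cocaine arrays 4 to 7, against 10.25, 10.38 and 10.19 on shock arrays 4 to 6. Ddit4 encodes REDD1, a stress-induced inhibitor of mTOR signalling. It had 7.27, 7.24, 6.86 and 7.20 on cocaine arrays 4 to 7, against 6.93, 7.25 and 6.80 on shock arrays 4 to 6. Both were high on cocaine arrays 4, 5 and 7 and shock array 5 and low on cocaine array 6 and shock arrays 4 and 6. These are also the 4 arrays with positive and the 3 with negative immediate early scores.

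Each was the nearest gene of the other (r = 0.988, rho = 0.821, and r = 0.965 without cocaine array 6 and shock array 6). Tsc22d1, a relative of Tsc22d3, and Zfp334 came next for Ddit4. The difference was 0.15 (SE 0.14) for Ddit4, at 0.049 without shock array 6 and 0.27 without shock array 5 (limma, adjusted p = 0.938 with all arrays). For Klf9 it was 0.050 (SE 0.066), at 0.0075 without shock array 6 and 0.10 without shock array 5 (limma, adjusted p = 0.943 with all arrays). Dusp1, a MAP kinase phosphatase gene that responds both to glucocorticoids and to neuronal activity, had the same high and low arrays over a wider range, with 9.50, 9.33, 8.46 and 9.16 on the cocaine arrays against 8.19, 9.27 and 7.90 on the shock arrays.

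Zbtb16, a zinc finger transcription factor gene strongly induced by glucocorticoids in many human cells, moved little. It had 7.96, 7.93, 8.06 and 7.92 on cocaine arrays 4 to 7, against 7.97, 7.93 and 7.91 on shock arrays 4 to 6. The highest value was on cocaine array 6, the array that stood apart over all genes. The difference was 0.035 (SE 0.044; limma, adjusted p = 0.939), and was 0.0046 without cocaine array 6.

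Pdk4 was the member with the lowest p. It encodes a kinase that inhibits pyruvate dehydrogenase and so spares glucose. It had 6.93, 7.13, 6.98 and 6.95 on cocaine arrays 4 to 7, against 7.05, 7.21 and 7.29 on shock arrays 4 to 6. Cocaine array 5 lay above shock array 4, so the groups overlapped by 1 array. Within each of the numbers 4, 5 and 6, however, the cocaine array lay below the shock array. The difference was -0.19 (SE 0.073), a 0.877-fold ratio with an unadjusted limma p of 0.0373 and an adjusted p of 0.938. The exact two-sided permutation test over the 35 splits of the arrays gave p = 0.0857, where 0.0286 is the smallest possible. For the other 9 members this test gave p-values of 0.114 (Nr3c2) or higher, none of them corrected for the 10 members tested.

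The sign of the Pdk4 difference held when each array was left out, with values of -0.26 to -0.14. With the title number as a replicate block the difference was -0.17 (limma, unadjusted p = 0.0537, adjusted p = 0.871). Vascular markers were lower in the cocaine arrays too, in 12 of 12 genes with a median of -0.29, and their score was -0.14, 0.044, -0.042 and -0.36 on cocaine arrays 4 to 7, against 0.18, 0.010 and 0.30 on shock arrays 4 to 6. Astrocyte markers were lower in 9 of 9 genes with a median of -0.16. None of these passed the adjustment over all genes. The nearest genes to Pdk4 were Abcc4, Tns1 and Ret (r = 0.973 to 0.978). The part of vascular or astrocyte RNA in the Pdk4 difference was not tested.

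**Figure D3:**
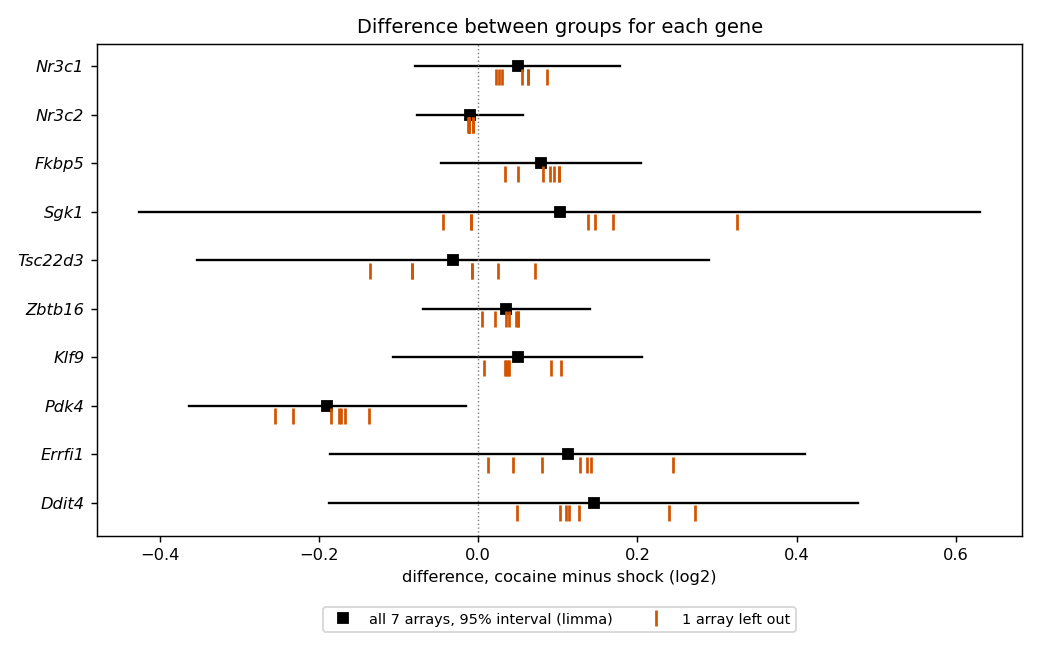
Difference between cocaine and shock means (log2) for each of the 10 genes, with squares for all 7 arrays, lines for the 95% interval from limma, and ticks for the values with 1 array left out. The Pdk4 interval alone lies below 0 (before correction), and the ticks of Sgk1 and Tsc22d3 fall on both sides of 0.

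Steps before and around the receptors showed no gene past the adjustment. Of 9 measured genes for chaperones that hold the receptor ready for hormone, 3 were higher and 6 lower in the cocaine group, with a median of -0.0046. Those of lowest p were Hspa8 (0.059), Hsp90aa1 (-0.049), Bag1 (-0.092) and Ptges3 (-0.083, under the background level). Of 9 coregulator genes 3 were higher and 6 lower (median -0.012), among them Crebbp (-0.041), Ncoa2 (0.024), Med1 (-0.052) and Ep300 (-0.029). Of the other steroid receptor genes, Esr2 differed by -0.084, Esr1 by 0.057 and Pgr by 0.023.

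Genes for steroid access and metabolism were lower in 5 of 6 cases (median -0.029), against 49.1% of all genes. Abcb1a, which encodes the P-glycoprotein pump of the blood-brain barrier that exports some corticosteroids, had 6.97, 7.13, 7.10 and 6.85 on cocaine arrays 4 to 7, against 7.21, 7.28 and 7.31 on shock arrays 4 to 6. Its groups did not overlap, as in 1.11% of all genes in this direction. The difference of -0.26 (95% interval -0.43 to -0.078) did not pass the correction (limma, adjusted p = 0.938). The vascular marker Slco1a4, another barrier transporter, differed by -0.48 and Cdh5, an endothelial adhesion gene, by -0.30. H6pd, which supplies the cofactor for corticosterone regeneration, differed by 0.082, and Abcb1b and Serpina6, both under the background level, by -0.15 and -0.045. Hsd11b1, which regenerates active corticosterone, averaged 5.97 ± 0.069 on cocaine arrays and 5.98 ± 0.023 on shock arrays (SD, n = 4 and n = 3).

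Other glucocorticoid-induced genes were higher in 12 and lower in 16 of 28 cases, with a median of -0.016. By lowest p they were Sdc4 (-0.23), Lcn2 (0.23), Mertk (-0.20) and Dusp1 (0.66). Lcn2 was near the background level of 5.46, with means of 5.55 on the cocaine arrays and 5.31 on the shock arrays. With 1 array left out, Lcn2 differed by 0.13 (shock array 4 omitted) to 0.30 (shock array 5 omitted), Mertk by -0.28 (cocaine array 5) to -0.12 (shock array 5) and Dusp1 by 0.38 (shock array 6) to 1.07 (shock array 5). Sdc4, a cell surface proteoglycan gene, was the only one of the 28 under an unadjusted p of 0.05, beside 3.1% of all genes. It was also the only one without overlap, beside 2.37% of all genes. Sdc4 had 8.24, 8.50, 8.50 and 8.21 on the cocaine arrays against 8.52, 8.70 and 8.56 on the shock arrays (limma, adjusted p = 0.938). The metallothionein genes Mt1 and Mt2, both classical glucocorticoid targets, differed by -0.040 and -0.097. Relatives and partners of the members were higher in 9 and lower in 10 of 19 cases, with a median of -0.0044, among them the stress genes Sesn1 (-0.064) and Sesn2 (-0.19), the EGF receptor family gene Erbb2 (-0.13) and Pdk3 (0.091).

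**Figure D4:**
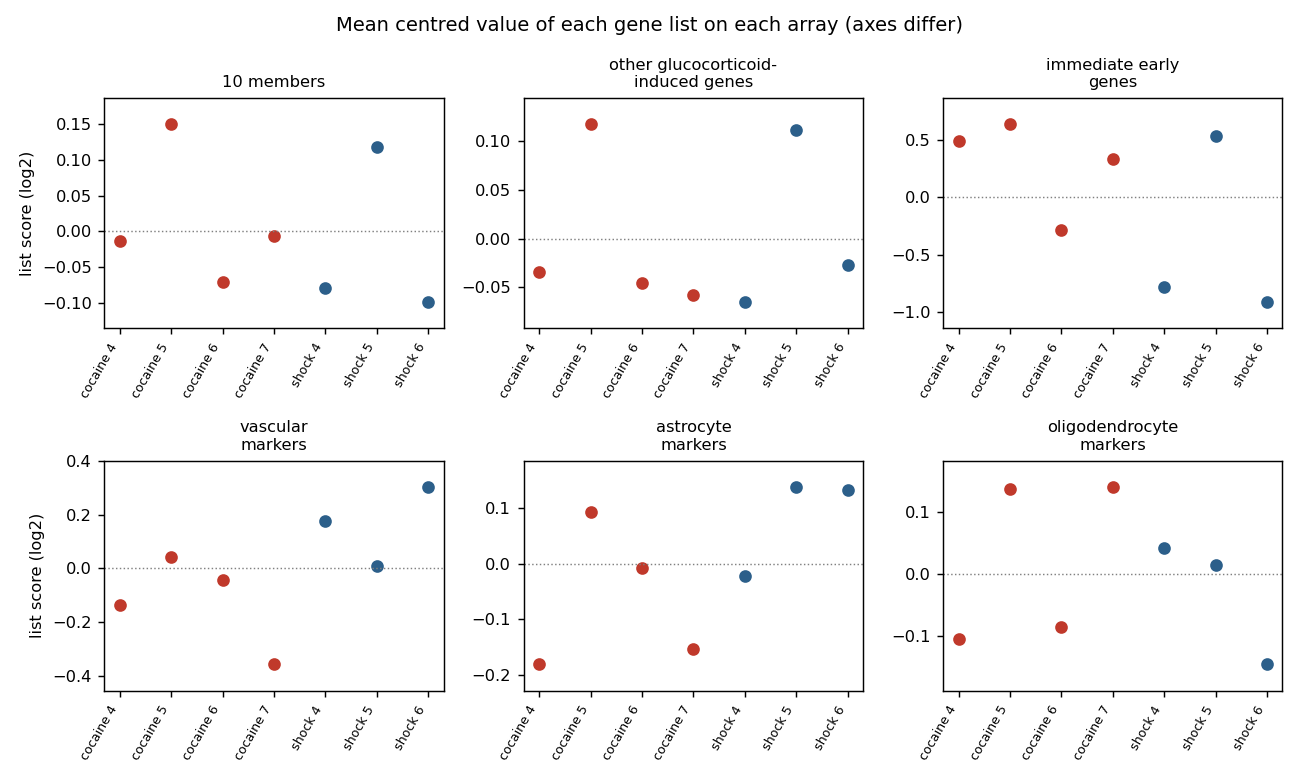
List scores (mean over genes of the log2 value minus the gene's mean over the 7 arrays) on each array, for the 10 members, other glucocorticoid-induced genes, immediate early genes and 3 marker lists, with cocaine arrays in red on the left and shock arrays in blue on the right. Both glucocorticoid lists peak on the arrays numbered 5 in both groups (members 0.15 on cocaine array 5 and 0.12 on shock array 5). The immediate early genes peak there too (0.63 and 0.53). Vascular markers are lowest on cocaine array 7.

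As a list, the members scored -0.013, 0.15, -0.071 and -0.0070 on cocaine arrays 4 to 7, against -0.079, 0.12 and -0.098 on shock arrays 4 to 6. The other glucocorticoid-induced genes, which share no gene with the members, scored -0.034, 0.12, -0.045 and -0.058 on the cocaine arrays, against -0.064, 0.11 and -0.027 on the shock arrays. In both lists the arrays numbered 5 lay above all others. Both lists were chosen with earlier results of these data known and were scored on the same 7 arrays. The second list is therefore a description and no independent test of the pattern.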

How the data were processed

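Each of the 7 samples is a ribosome precipitate hybridised to 1 Affymetrix array with a single label. The authors deposited 1 table of log2 values for 41345 probe sets; the scale was read from the values, which run from 1.12 to 13.44 with array medians of 5.44 to 5.47. Per the submitters' processing notes, Transcriptome Analysis Console was used; the sources used here do not give the summarization, background correction, normalization or filters. Values equalised between arrays show differences relative to other genes. Arrays have no read depth, and their number limits the precision. By platform annotation, 23521 probe sets had 1 symbol, 1814 several and 16010 none listed.

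Differences were tested on the log2 scale by a linear model of all 7 arrays without covariates (limma 3.58.1, moderated, two-sided; R 4.3.3), with Benjamini-Hochberg adjustment over 22180 genes at 0.05, and tested on simulated data. Single members were also tested by an exact permutation of arrays. The naming rule covered all 10 members, the 4 genes of lowest p per pathway list, the 2 per marker list and the 3 most similar genes per member. Not all marker genes and similar genes under this rule are printed. Other genes are marked or were chosen after their values were seen. The members and lists were chosen with earlier results of these data known. Alternatives left out each array, changed the normalization, the filter on dim genes, the probe set rule, the variance model and the array weights, or added a replicate block.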

Additional observations from a re-analysis of the deposited data

Results flagged for a closer look

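Among the 4 cocaine arrays, 6 of 12 measures (the 10 members and 2 list scores) had 1 array whose gap to its nearest neighbour passed the 95% limit of Dixon's test for 4 samples, as a share of the group's range; chance passes about 5% of independent measures, and these measures are not independent. Cocaine array 5 was highest for Sgk1 (0.853), Errfi1 (0.8621) and the score of other glucocorticoid-induced genes (0.8614). Cocaine array 6, which stood apart over all genes, was lowest for Klf9 (0.9063) and Ddit4 (0.8315). Cocaine array 7 was lowest for Nr3c2 (1), where the other 3 cocaine arrays had an identical value. Dixon's test was not applied to the 3 shock arrays. Nor was it applied to all genes, so it is not known whether 6 of 12 exceeds the share among them.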

How the results depend on the processing

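Of the members, 0 passed limma's adjusted p threshold under any of the 14 alternatives, and 0 of all genes did (688 at an unadjusted p under 0.05, and 449 to 915 under the alternatives, the lowest with dim genes left out, where 13733 genes were tested). Signs turned for Nr3c2 after median centring (0.0098), for Sgk1 (-0.045 to 0.32 with 1 array left out) and for Tsc22d3 (-0.14 to 0.072 with 1 array left out). With 1 array left out, the median of the members was 0.010 to 0.087 and that of the other glucocorticoid-induced genes -0.053 to 0.0012. With both arrays numbered 5 on top there were 3 members and 8 other glucocorticoid-induced genes. The counts were 3 and 7 after quantile normalization and 3 and 8 with probe sets averaged per gene, alternatives chosen after seeing the data. The title numbers, whose meaning is not given, were not taken to pair the arrays in the main model. Over all genes, same-numbered arrays deviated from their group means with correlations of 0.13, 0.064 and 0.16 (numbers 4, 5 and 6), the middle one under 0.1. Over genes above the background level these were 0.27, 0.15 and 0.31, all above 0.1. Differently numbered arrays correlated there at -0.23 to 0.033, except shock array 5 with cocaine array 7 (0.20). The correlations therefore do not show that the arrays are unpaired. With the number as a replicate block, 0 genes passed (915 at an unadjusted p under 0.05), and the differences were -0.17 for Pdk4, 0.15 for Sgk1, 0.14 for Errfi1, 0.13 for Ddit4 and -0.0076 for Tsc22d3. The member below 0.05 before adjustment was then Sgk1, in place of Pdk4: limma's unadjusted p for Sgk1 was 0.0348 with the block (adjusted p = 0.871) and 0.659 without it, and for Pdk4 it was 0.0537 with the block and 0.0373 without it. Signal over background limits the second Nr3c2 probe set and the dim genes of the lists.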

Other observations

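Receptor chaperone genes had an array pattern of their own. Both arrays numbered 6 lay above each of the other 5 arrays in 5 of 9 measured genes (Fkbp4, Ptges3, Stip1, Ahsa1 and Ppp5c), where 6.58% of all genes did so, and both arrays numbered 5 in 0 of 9. This was noticed in the values and is a description. Stip1, which encodes the organiser that links HSP70 to HSP90, had 9.84, 9.92, 9.98 and 9.90 on cocaine arrays 4 to 7, against 9.85, 9.87 and 10.02 on shock arrays 4 to 6. Ahsa1, which encodes an activator of HSP90, had 8.91, 8.97, 9.03 and 8.93 on the cocaine arrays, against 8.81, 8.91 and 9.03 on the shock arrays. The list score was 0.034 on cocaine array 6 and 0.11 on shock array 6, and these were the highest of their groups. Fkbp5, the co-chaperone induced by the receptor, was lowest in each group on the array numbered 6.

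Among relatives and partners of the members, 4 of 19 had both arrays numbered 5 on top: Tsc22d2, Tsc1, Mtor and Egfr. Egfr, whose product Errfi1 inhibits, had 7.09, 7.32, 7.03 and 7.13 on cocaine arrays 4 to 7, against 7.22, 7.36 and 7.19 on shock arrays 4 to 6. What the title numbers mark is not given in the sources used here, and their part in these patterns was not tested.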
